A study of Mus musculus with 15 samples.

Results

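The enzymes described here oxidise alcohols and retinol, or reduce the aldehydes that result, in mouse liver. They are 8 genes fixed by name: the alcohol dehydrogenases Adh1, Adh4, Adh5 and Adh7, the retinol dehydrogenases Rdh7 and Rdh16, and the aldehyde reductases Rdh11 and Dhrs3. The rows of the mRNA table with these symbols were summed by gene, and all 8 were found among 21949 genes and passed the filter on low values that left 11557 genes. Liver RNA came from wild-type male C57BL/6 mice aged 40 weeks, in 5 groups of 2 libraries each. H1D, H2D and H3D mice were sons of the F0, F1 and F2 generations, received the liver carcinogen DEN (diethylnitrosamine) into the peritoneum at 2 weeks of age and were raised on a high-fat diet (60% of energy from fat). F0 females had eaten that diet or chow between 1 and 3 months of age before being mated with chow-fed males, and later generations were bred in a like way. NCD mice were sons of F0 that received DEN and ate chow, and Nor mice were sons of F0 that received PBS and ate chow. Diet and ancestry change together between the high-fat groups and NCD and cannot be told apart, and each generation is a single group. Each library was a pool, made by combining RNA of 4 to 8 animals per group into 2 pools, so the spread given here is that between pools and not between animals.

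Alcohol dehydrogenases are cytosolic zinc enzymes that use NAD to turn alcohols into aldehydes. The liver clears ethanol through them, and several of them also accept retinol (vitamin A). Retinol dehydrogenases of the short-chain family are bound to membranes and, depending on the member and its cofactor, either oxidise retinol to retinal or reduce retinal back to retinol. Retinal dehydrogenases then turn retinal into retinoic acid, the ligand of nuclear retinoic acid receptors, and most of the body's vitamin A is stored in the liver as retinyl ester in stellate cells.

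The value used throughout is FPKM, a level scaled to transcript length and to the mapped fragments of the library, which the authors deposited per transcript. The mRNA FPKM of a library summed to between 568823 and 784456, with the lowest sums in H3D and the highest in Nor, and mitochondrially encoded genes made up 8.27% to 16.2% of it. The number of reads is unknown, so no counting interval is given. Of the 8 hepatocyte markers (Alb, Apoa1 and others), 0 were listed at 0 in any library, and their sum lay between 58416 and 104438 FPKM. The 8 dehydrogenases together held 1496 and 1660 FPKM in the H1D pools, 1453 and 1554 in H2D, 1151 and 1189 in H3D, 1967 and 2146 in NCD, and 2339 and 2508 in Nor. The groups do not overlap in that sum except for H1D and H2D. Library totals also differ, and relative to them Nor and NCD do overlap. The share of a library's mRNA FPKM held by the 8 genes was 0.298% to 0.325% for Nor pools and 0.298% to 0.317% for NCD pools. Every high-fat pool had a smaller share than these, from 0.198% (H3D pool 2) to 0.273% (H1D pool 2). Adh1 alone made up 50.0% to 60.8% of the summed FPKM of the 8 genes.

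The 4 alcohol dehydrogenase genes lie in 1 cluster on chromosome 3 (GRCm38), between the start of Adh7 at 138198064 and the end of Adh5 at 138455499, with Adh6a and Adh6b between Adh1 and Adh4. Rdh16 (127801090 to 127815846) and Rdh7 (127884027 to 127889247) lie in a cluster of related genes on chromosome 10 that also holds Rdh1, Rdh9, Rdh19 and Rdh16f2. Rdh11 lies on chromosome 12 (79174233 to 79191855) and Dhrs3 on chromosome 4 (144892534 to 144928209). Clustered relatives resemble each other in sequence, so fragments could be split between them and the level of any 1 of them is uncertain to that extent.

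Sequence upstream of 4 members is shown, because Adh1 and Rdh7 had the highest levels of the 8 and Adh4 and Rdh16 the largest falls. The letters are RefSeq's for GRCm38.p6, from the gene's strand, and end at the base before the annotated gene: chr3:138277335-138277584 (plus strand) for Adh1, chr3:138415247-138415455 (plus) for Adh4, chr10:127889248-127889497 (minus) for Rdh7 and chr10:127800903-127801089 (plus) for Rdh16. Capitals mark 4 motifs on either strand. The nuclear receptor core element was searched as AGGTCA, and the TATA box was searched as the letters TATAAA. The CAAT box was searched as the letters CCAAT, while for the E-box the letters were CACGTG.
Adh1: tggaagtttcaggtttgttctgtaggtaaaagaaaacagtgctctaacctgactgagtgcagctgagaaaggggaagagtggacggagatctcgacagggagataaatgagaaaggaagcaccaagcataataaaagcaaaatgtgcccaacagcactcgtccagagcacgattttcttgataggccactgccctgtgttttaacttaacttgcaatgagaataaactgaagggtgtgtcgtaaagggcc
Adh4: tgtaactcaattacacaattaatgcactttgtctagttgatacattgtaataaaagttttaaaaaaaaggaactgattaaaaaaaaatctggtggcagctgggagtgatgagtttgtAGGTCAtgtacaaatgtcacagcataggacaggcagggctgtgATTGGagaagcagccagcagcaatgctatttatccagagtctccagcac
Rdh7: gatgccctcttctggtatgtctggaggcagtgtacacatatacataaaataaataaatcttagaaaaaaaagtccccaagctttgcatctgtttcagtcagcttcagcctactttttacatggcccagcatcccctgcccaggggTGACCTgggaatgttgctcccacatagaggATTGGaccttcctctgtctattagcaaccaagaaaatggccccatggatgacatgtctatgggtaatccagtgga
Rdh16: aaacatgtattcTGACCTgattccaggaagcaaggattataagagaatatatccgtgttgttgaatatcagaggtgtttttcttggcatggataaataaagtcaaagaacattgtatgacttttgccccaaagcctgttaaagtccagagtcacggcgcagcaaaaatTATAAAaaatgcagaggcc
The core element stands in the Adh4, Rdh7 and Rdh16 stretches, with a CAAT box also in Adh4 and Rdh7 and a TATA box also in Rdh16, while the Adh1 stretch holds none of the 4 motifs. RefSeq gives 13 start windows for the 8 members, each of 250 bases before and 50 after a start. The core element occurred in 4 of them (Adh4, Rdh7, Rdh16 and Rdh11), against 16.3% of all 32851 windows. The TATA box occurred in 3 (Adh5, Adh7 and Rdh16; 13.6% of all windows), the CAAT box in 6 windows of Adh4, Adh7, Rdh7, Rdh11 and Dhrs3 (37.4%), and the E-box in 2 (Adh1 and Rdh11; 7.15%). Direct repeats of the core element spaced by 1 base (0.0396% of all windows) or by 5 bases (0.00913%), which both contain the single element, and the sterol element of the low-density lipoprotein receptor promoter (0.0913%) were found in none of the 13. The Dhrs3 windows with a CAAT box overlap and have a CAAT box in common, so they are not separate. A match describes the letters only.

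By group mean, 7 of the 8 genes were lowest in H3D and highest in Nor, an order whose share among all tested genes was not counted. Rdh11 was the exception, with its highest mean in NCD and its lowest in H2D, where the pools lay within the range of the Nor pools. The lowest single pool of Rdh11 was Nor pool 1. For Adh1, Rdh16 and Dhrs3 the Nor and NCD pools overlapped. With equal mRNA sums the log2 change in NCD against Nor was 0.20 for Adh1 and 0.15 for Dhrs3, neither called. H3D and NCD pools did not overlap for any of the 8, all lower in H3D, where 32.3% of all tested genes were lower without overlap. Under limma with Benjamini-Hochberg adjustment over all tested genes, 6 of 8 fell in H3D against NCD (Adh1, Adh4, Adh5, Rdh7, Rdh16 and Dhrs3), where 14.9% of all tested genes were called and 9.87% of all tested genes were called as lower. With libraries scaled to equal mRNA sums the count was 4 and with quantile scaling 5, without Adh5 and Dhrs3 in both cases and with Adh7 added under quantile scaling. The median log2 change of the 8 was -0.69, against 0.00 over all tested genes.

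**Figure D1:**
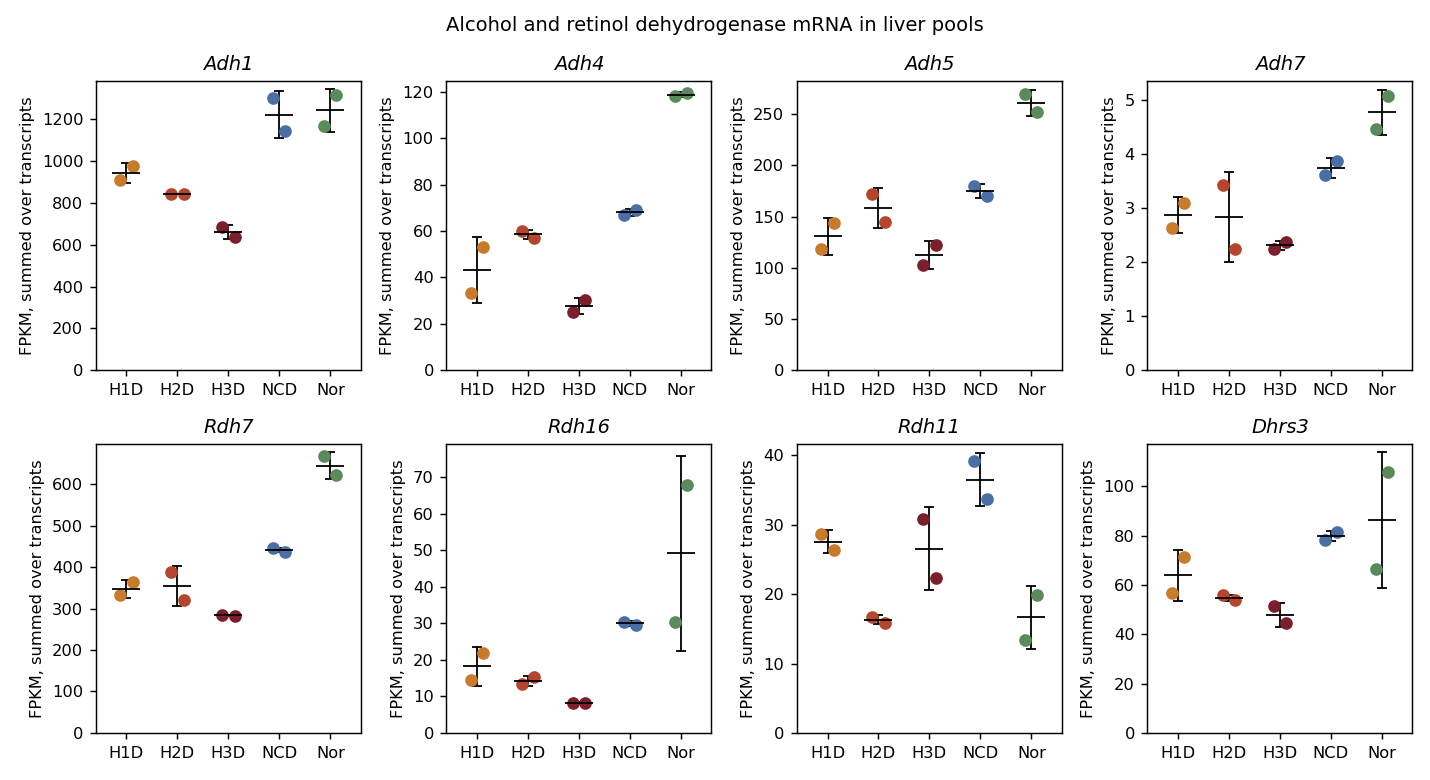
FPKM of each gene (vertical axis, from 0) in every liver pool, by group along the horizontal axis. Points are pools, and bars are the mean and SD of 2 pools. By group mean, all genes but Rdh11 are lowest in H3D and highest in Nor, while Rdh11 is highest in NCD and lowest in H2D. Nor and NCD pools overlap for Adh1, Rdh16 and Dhrs3.

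Fewer of the 8 were called in H2D and H1D. In H2D against NCD, Adh1 and Rdh11 fell (2 of 8, where 4.08% of tested genes were called and 1.93% as lower), with a median of -0.45 against 0.00. In H1D against NCD the pools of all 8 genes were lower without overlap (26.9% of all tested genes), with a median of -0.38 against 0.01. Of these, 0 of 8 passed limma's adjusted threshold, where 0.701% of tested genes were called. Limma's unadjusted p was under 0.05 for 4 of the 8 and for 1986 of the 11557 tested genes. For the mean of H1D, H2D and H3D against NCD, 5 of 8 fell (Adh1, Adh4, Rdh7, Rdh16 and Rdh11), where 11.8% were called and 7.53% as lower. These 4 comparisons share the same 2 NCD pools. Without NCD pool 1 or without NCD pool 2 the counts became 0 of 8 in H2D and in the mean comparison and 2 of 8 in H3D, and without an H2D pool the H2D count was 0. The mean comparison called 2 without H2D pool 2, 3 without H1D pool 1 and 3 without H3D pool 2, and H3D against NCD called 3 without H3D pool 1. In each such fit the lone pool is taken to vary like the other groups.

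In NCD against Nor, which differ in DEN against PBS on the same chow, 3 of 8 fell (Adh4, Adh5 and Rdh7) and Rdh11 rose. Of all tested genes 13.9% were called, 7.93% as higher and 6% as lower. The median log2 change of the 8 was -0.43, against -0.04 over all tested genes. Without NCD pool 1 or without NCD pool 2 the count was 0 of 8, and without Nor pool 1 it was 2. The count was 1, Rdh11, when libraries were scaled to equal mRNA sums or to the same distribution.

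**Figure D2:**
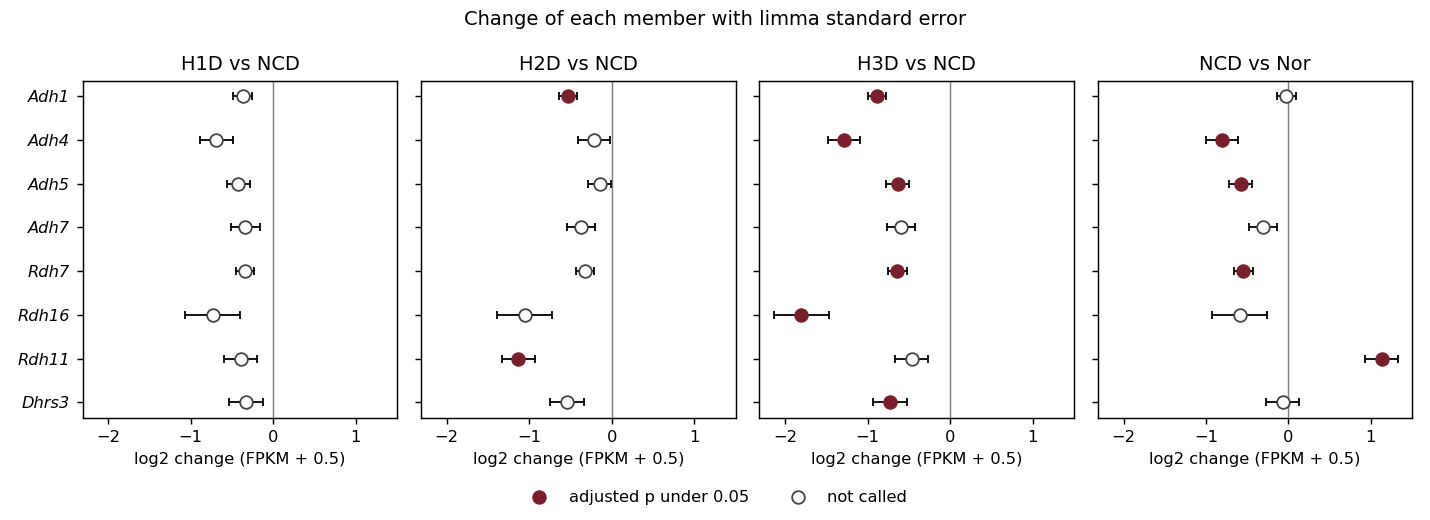
Log2 change of FPKM + 0.5 (horizontal axis) for each gene in H1D, H2D and H3D against NCD and in NCD against Nor, with limma's standard error as bars. Filled points had an adjusted p under 0.05. All points against NCD lie left of 0, and Rdh11 is the gene to the right of 0 in NCD against Nor.

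Adh1 is the class I enzyme, the main ethanol dehydrogenase of liver. It had 910.1 and 978 FPKM in the H1D pools, 844 and 845 in H2D, 684 and 639 in H3D, 1303 and 1143 in NCD, and 1169 and 1317 in Nor. NCD and Nor overlap, and every high-fat pool lies below every chow pool. The means were 944 ± 47.7 in H1D, 844 ± 0.699 in H2D, 662 ± 32.3 in H3D, 1223 ± 113 in NCD and 1243 ± 105 in Nor (SD, n = 2 each). In H3D it fell to 54.1% of the NCD mean, with a log2 change of -0.88 ± 0.11 (SE, adjusted p = 0.0029). In H2D it fell by 0.53 ± 0.11 on the log2 scale (adjusted p = 0.0419), and for the mean of the 3 high-fat groups by 0.60 ± 0.09 (adjusted p = 0.0077). H1D was lower by a log2 change of -0.37 ± 0.11 (adjusted p = 0.149). In NCD against Nor the log2 change was -0.02 ± 0.11 (adjusted p = 0.903). The H3D call held in all 18 other fits. The H2D call was lost without any 1 of the H1D, H2D, H3D or NCD pools, with adjusted p from 0.0514 without H3D pool 2 to 0.251 without H2D pool 2 (0.139 without NCD pool 2 and 0.244 without NCD pool 1). It was also lost with no filter (0.085), equal mRNA sums (0.0863), quantile scaling (0.0617) or a replicate block (0.0557). The call for the mean was lost without NCD pool 1 (adjusted p = 0.0977) or NCD pool 2 (0.0658).

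Adh4, the class II enzyme, acts on longer alcohols and on retinol and is made mainly by the liver. Its levels were 33.2 and 53.1 FPKM in H1D, 60.0 and 57.2 in H2D, 25.1 and 30.2 in H3D, 66.9 and 69.1 in NCD, and 118 and 119.6 in Nor. No neighbouring groups in the order of the means overlapped, with H2D above H1D and H3D at the bottom. It fell to 57.2% of the Nor mean in NCD livers, by 0.80 ± 0.19 on the log2 scale (adjusted p = 0.0345). In H3D it fell to 40.7% of the NCD mean, with a log2 change of -1.29 ± 0.19 (adjusted p = 0.0051), a call that held in all 18 other fits. For the mean of the high-fat groups the log2 change was -0.73 ± 0.16 (adjusted p = 0.0246). H1D differed from NCD by -0.69 ± 0.19 (adjusted p = 0.136) and H2D by -0.21 ± 0.19 (adjusted p = 0.627). The call in NCD against Nor was lost without Nor pool 1 (adjusted p = 0.0945), Nor pool 2 (0.0607), NCD pool 1 (0.169), NCD pool 2 (0.122) or either H2D pool (0.0556). The call for the mean was lost without NCD pool 1 (0.145), NCD pool 2 (0.191) or H2D pool 2 (0.062). Without H1D pool 2, H1D against NCD was called (log2 change -1.02, adjusted p = 0.0346), while without H1D pool 1 the log2 change was -0.35 (adjusted p = 0.433). The call in NCD against Nor was also lost with equal mRNA sums (-0.58, adjusted p = 0.0894), quantile scaling (-0.57, 0.103) or no filter (0.0602), and that for the mean with equal mRNA sums (-0.58, 0.0508).

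Adh5 is the class III enzyme, which oxidises the glutathione adduct of formaldehyde and reduces S-nitrosoglutathione, and is expressed in most tissues. It had 118 and 144 FPKM in H1D, 172 and 144 in H2D, 103 and 122 in H3D, 179 and 169.9 in NCD, and 269.9 and 252 in Nor. Nor lies above all other pools, and H2D overlaps NCD. In NCD livers it fell to 66.9% of the Nor mean, with a log2 change of -0.58 ± 0.14 (adjusted p = 0.0332). In H3D it fell to 64.4% of the NCD mean, with a log2 change of -0.64 ± 0.14 (adjusted p = 0.0201). The changes were -0.42 ± 0.14 in H1D (adjusted p = 0.175), -0.15 ± 0.14 in H2D (adjusted p = 0.64) and -0.40 ± 0.11 for the mean of the high-fat groups (adjusted p = 0.057). The call in NCD against Nor was lost without Nor pool 1 (0.111) or either NCD pool (0.145 each). In H3D it was lost without NCD pool 1 (adjusted p = 0.113), NCD pool 2 (0.0944) or H3D pool 1 (0.103). With equal mRNA sums the log2 change was -0.36 (adjusted p = 0.105) in NCD against Nor and -0.42 (0.0552) in H3D against NCD, and with quantile scaling -0.41 (0.0726) and -0.28 (0.127), and none of these passed. With no filter the call in NCD against Nor was also lost (0.0522).

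Adh7, the class IV enzyme, oxidises retinol and is known from the stomach and other upper digestive epithelia more than from liver. It was the lowest of the 8 on the FPKM scale, which allows for length, with 2.63 and 3.11 FPKM in H1D, 3.44 and 2.25 in H2D, 2.25 and 2.37 in H3D, 3.62 and 3.88 in NCD, and 4.48 and 5.08 in Nor. All high-fat pools lie below both NCD pools, which lie below both Nor pools. H2D overlaps H1D and H3D, which do not overlap each other. None of the comparisons passed the threshold: the log2 change was -0.31 ± 0.17 in NCD against Nor (adjusted p = 0.256), -0.60 ± 0.17 in H3D (adjusted p = 0.056) and -0.43 ± 0.14 for the mean of the high-fat groups (adjusted p = 0.0883). H3D against NCD was called without H2D pool 1 (adjusted p = 0.0268) or H2D pool 2 (0.0262), and the mean was called without H2D pool 1 (0.0296). H3D against NCD was also called with quantile scaling (-0.70, adjusted p = 0.0457) or with only these groups in the fit (0.0264).

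Rdh7 and Rdh16 are short-chain dehydrogenases that oxidise retinol, cis-retinol and some hydroxysteroids in rodents, also known as CRAD2 and CRAD1. Rdh7 had 332 and 363 FPKM in H1D, 389 and 319.9 in H2D, 284 and 282 in H3D, 445 and 437 in NCD, and 668 and 621 in Nor. H1D and H2D overlap, and no other neighbouring groups in the order of the means do, with H3D at the bottom and Nor at the top. It fell to 68.4% of the Nor mean in NCD, with a log2 change of -0.55 ± 0.11 (adjusted p = 0.0217), and to 64.2% of the NCD mean in H3D, with a log2 change of -0.64 ± 0.11 (adjusted p = 0.0089). For the mean of the high-fat groups it fell by 0.43 ± 0.09 on the log2 scale (adjusted p = 0.0223). The changes were -0.34 ± 0.11 in H1D (adjusted p = 0.175) and -0.32 ± 0.11 in H2D (adjusted p = 0.165). Without NCD pool 1 or NCD pool 2 the adjusted p was 0.126 and 0.106 in NCD against Nor, 0.0626 and 0.0648 in H3D, and 0.164 and 0.169 for the mean. Without Nor pool 1 it was 0.0822 in NCD against Nor. With equal mRNA sums the log2 change was -0.33 in NCD against Nor (adjusted p = 0.0785) and -0.29 for the mean (0.061), and with quantile scaling it was -0.29 in NCD against Nor (0.109), so these calls were lost.

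Rdh16 had the widest range of the 8, with its highest pool 8.32 times its lowest. It had 14.5 and 22.0 FPKM in H1D, 13.3 and 15.2 in H2D, 8.17 and 8.30 in H3D, 30.5 and 29.5 in NCD, and 30.3 and 68.0 in Nor. The Nor pools differ from each other and overlap with NCD, and every high-fat pool lies below every chow pool. In H3D it fell to 27.5% of the NCD mean, with a log2 change of -1.80 ± 0.33 (adjusted p = 0.0107), the largest fall of the 8. For the mean of the high-fat groups the log2 change was -1.20 ± 0.27 (adjusted p = 0.0289). The changes were -0.73 ± 0.33 in H1D (adjusted p = 0.317), -1.05 ± 0.33 in H2D (adjusted p = 0.134) and -0.59 ± 0.33 in NCD against Nor (adjusted p = 0.258). The H3D call was lost without NCD pool 1 (0.0639), NCD pool 2 (0.0688), H3D pool 1 (0.0555) or H3D pool 2 (0.0533). For the mean it was lost without NCD pool 1 (0.174), NCD pool 2 (0.188), H1D pool 1 (0.0558), H2D pool 1 (0.0565), H2D pool 2 (0.0615), H3D pool 1 (0.0549) or H3D pool 2 (0.055), and with no filter (0.0593). Without Nor pool 1, the lower of the pair, Rdh16 was called in NCD against Nor (log2 change -1.17, adjusted p = 0.0288), while without Nor pool 2 the log2 change was -0.017 (adjusted p = 0.961). Without either Nor pool it was also called in H2D against NCD (adjusted p = 0.0199 and 0.0197) and in H3D against H1D (0.0468 and 0.0466). Rdh16f2, its neighbour on chromosome 10, was named after its values were seen. It averaged 123 ± 29.1 FPKM in H1D, 80.0 ± 7.67 in H2D, 99.4 ± 1.56 in H3D, 92.2 ± 18.9 in NCD and 70.4 ± 10.6 in Nor, with a log2 change of 0.12 ± 0.20 in H3D against NCD (adjusted p = 0.728).

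Rdh11 is a microsomal enzyme that uses NADPH to reduce retinal and other aldehydes. It had 28.7 and 26.4 FPKM in H1D, 16.8 and 15.9 in H2D, 30.8 and 22.4 in H3D, 39.2 and 33.8 in NCD, and 13.5 and 19.9 in Nor. NCD lies above all other pools, while H2D and Nor overlap at the bottom and H1D and H3D overlap between them. It rose in NCD to 219% of the Nor mean, with a log2 change of 1.13 ± 0.20 (adjusted p = 0.0136). In H2D it fell to 44.7% of the NCD mean, by 1.13 ± 0.20 on the log2 scale (adjusted p = 0.0248), and for the mean of the high-fat groups by 0.66 ± 0.16 (adjusted p = 0.0374). The changes were -0.39 ± 0.20 in H1D (adjusted p = 0.366) and -0.46 ± 0.20 in H3D (adjusted p = 0.168). In NCD against Nor the call was lost without NCD pool 1 (0.105) or NCD pool 2 (0.0517). In H2D it was lost without NCD pool 1 (0.157), NCD pool 2 (0.126), H2D pool 1 (0.0829) or H2D pool 2 (0.189). For the mean it was lost without NCD pool 1 (0.252), NCD pool 2 (0.162), H1D pool 1 (0.0653), H1D pool 2 (0.0696), H2D pool 1 (0.0638), H2D pool 2 (0.0861) or H3D pool 2 (0.0566). With no filter the H2D call (0.0551) and that for the mean (0.0687) were lost, the mean also with equal mRNA sums (0.0709) or quantile scaling (0.0696), and NCD against Nor with only these groups in the fit (0.0593).

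Dhrs3, also a retinal reductase, is a target of retinoic acid in several tissues. It had 56.6 and 71.3 FPKM in H1D, 55.7 and 54.0 in H2D, 51.4 and 44.5 in H3D, 78.4 and 81.3 in NCD, and 66.6 and 106 in Nor. NCD falls within the wide Nor pair, and all other neighbouring groups in the order of the means are separate. In H3D it fell to 60.1% of the NCD mean, with a log2 change of -0.73 ± 0.21 (adjusted p = 0.0489). The changes were -0.33 ± 0.21 in H1D (adjusted p = 0.468), -0.54 ± 0.21 in H2D (adjusted p = 0.198), -0.53 ± 0.17 for the mean (adjusted p = 0.0799) and -0.07 ± 0.21 in NCD against Nor (adjusted p = 0.835). The H3D call was lost without any 1 of the NCD, H1D, H2D or H3D pools, with adjusted p from 0.0562 without H1D pool 2 to 0.203 without NCD pool 2 and without H3D pool 2 (0.156 without NCD pool 1, 0.104 without H3D pool 1). It was also lost with a pseudocount of 0.1 (0.0502), no filter (0.0823), equal mRNA sums (-0.52, 0.112) or quantile scaling (-0.50, 0.132). Without either Nor pool the mean comparison was called (adjusted p = 0.0173 and 0.0171).

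The 3 high-fat groups were also set against each other, which asks whether generations on the same diet differ. In H2D against H1D, H3D against H1D and H3D against H2D, 0 of 8 passed limma's adjusted threshold, where 0.147%, 0.606% and 0.511% of tested genes were called. Unadjusted p was under 0.05 for 2, 4 and 5 of the 8, and for 1125, 1332 and 1478 of the 11557 tested genes. H3D pools were lower than H2D pools without overlap for 6 of the 8 (26.1% of all tested genes) and higher for Rdh11 (19.6%). The median log2 change of the 8 was -0.33 in H3D against H2D, -0.35 in H3D against H1D and -0.10 in H2D against H1D, and all 3 medians over all tested genes lay between -0.02 and 0.00. The largest differences were for Adh4 in H3D against H2D (-1.07 ± 0.19, adjusted p = 0.0654) and Rdh16 in H3D against H1D (-1.07 ± 0.33, adjusted p = 0.235). Rdh11 was higher in H3D than in H2D, by 0.67 ± 0.20 (adjusted p = 0.197), and differed by -0.74 ± 0.20 in H2D against H1D (adjusted p = 0.273). Without either H1D pool, Adh4 was called in H3D against H2D (adjusted p = 0.0086 in both cases).

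Ratios between genes within a library do not change with a single scaling factor per library, though they can under quantile scaling. Adh4 was 4.54% ± 1.26 of the Adh1 level in H1D, 6.94% ± 0.24 in H2D, 4.20% ± 0.75 in H3D, 5.59% ± 0.647 in NCD and 9.59% ± 0.72 in Nor (SD, n = 2 each). Rdh7 was 36.8% ± 0.419 of Adh1 in H1D, 42.0% ± 5.84 in H2D, 42.8% ± 1.86 in H3D, 36.2% ± 2.88 in NCD and 52.1% ± 7.07 in Nor. For both, each Nor pool lies above each pool of the other groups. Rdh16 over Rdh7, the 2 relatives on chromosome 10, was 5.20% ± 1.20 in H1D, 4.07% ± 0.943 in H2D, 2.91% ± 0.0492 in H3D, 6.79% ± 0.0742 in NCD and 7.74% ± 4.53 in Nor. Both H3D pools lie below all others in this ratio. Rdh11 over Rdh7, a reductase over an oxidising enzyme, was 7.96% ± 0.959 in H1D, 4.63% ± 0.467 in H2D, 9.38% ± 2.04 in H3D, 8.26% ± 0.756 in NCD and 2.61% ± 0.838 in Nor. Dhrs3 over Adh1 stayed between 5.70% and 8.02% over the 10 libraries. No test was run on ratios.

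**Figure D3:**
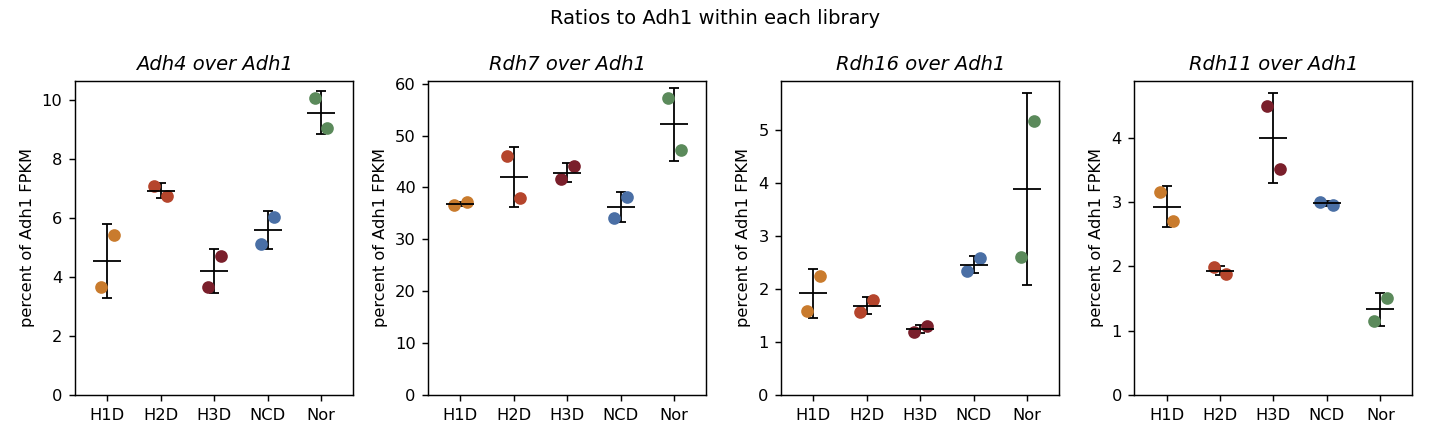
Level of Adh4, Rdh7, Rdh16 and Rdh11 as a percentage of the Adh1 FPKM of the same library (vertical axes, from 0), by group. Points are pools, and bars are the mean and SD of 2 pools. Adh4 and Rdh7 are highest relative to Adh1 in Nor, and Rdh11 is lowest there.

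The 8 genes were listed as 13 transcripts. Adh1, Adh5, Adh7, Rdh7 and Rdh16 had 1 each, and 1 transcript of Adh4 held 97.9% to 100% of its FPKM. For Rdh11, ENSMUST00000161204 held 72.1% to 86.2% and ENSMUST00000085254 the rest. Dhrs3 was spread over 4, with ENSMUST00000171001 at 42.8% to 52.1% and ENSMUST00000154208 at 36.4% to 44.0%. These shares come from the authors' assignment of fragments to overlapping transcripts.

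By distance between profiles, Adh5, Rdh7 and Adh7 were the most alike. The distance is the root mean square difference between 2 genes over the 10 libraries, each gene's log2(FPKM + 0.5) being centred on its mean, and it was 0.108 between Adh5 and Rdh7, 0.131 between Adh7 and Rdh7, and 0.146 between Adh1 and Dhrs3. Rdh11 was the farthest from the rest, at 1.02 from Rdh16 and 1.01 from Adh4. Among all tested genes the nearest to Adh4 were Asl (0.103), Pecr and Suox (0.114), where the median over tested genes was 0.729. Nearest to Rdh7 were Decr2 (0.0541), Adi1 and Ndufs1 (0.0579), with a median of 0.435, and to Adh5 Hebp1 (0.0511), Ecsit and Nars2 (0.0677), with a median of 0.452. Adh1 lay nearest to Nfyb (0.0932), Hdac11 and Nqo2 (0.0984), Adh7 to Abhd3 (0.085), Ndufa10 and Mcee (0.0885), and Dhrs3 to Cyp4f17 (0.113), Ept1 and Fam149a (0.125). Rdh16 had no neighbour as close, with Gsta3 at 0.185, Aldh3a2 at 0.198 and Ppp1r3c at 0.224 (median 0.894), and neither had Rdh11, with Fdft1 at 0.232, Elp6 and Tubb4b at 0.252 (median 0.536). Fdft1 (squalene synthase, of sterol synthesis) averaged 39.2 ± 4.14 FPKM in H1D, 28.0 ± 0.0344 in H2D, 32.5 ± 10.8 in H3D, 46.8 ± 1.14 in NCD and 27.1 ± 0.60 in Nor. These distances describe the 10 libraries, which share the group differences.

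Of 36 other genes of retinoid handling, 25 were tested. In H3D against NCD 8 fell (Aldh1a1, Aldh1a7, Bco2, Cyp26a1, Dhrs4, Rbp4, Rdh10 and Ttr) and Bco1 rose, and the mean of the high-fat groups gave the same genes except Rdh10. In H2D Aldh1a1 and Ttr fell, and in H1D 0 of 25 were called by limma. Of all tested genes, 7.53% were called as lower in the mean, 1.93% as lower in H2D and 0.701% in either direction in H1D. The median log2 change in H3D was -0.13, against 0.00 over all tested genes, of which 9.87% were called as lower. Without NCD pool 1 or NCD pool 2 the mean comparison called 2 and 1 of the 25, H3D called 5 and 4, and H2D called 0. Without H2D pool 1 the mean comparison called 5 and H2D 1, and without H2D pool 2 these were 4 and 0. Without H3D pool 1 H3D called 5 and the mean 5, and without H3D pool 2 H3D called 6 and the mean 5. Without either Nor pool H2D called 4 and H1D 2, and H1D called 3 without H1D pool 2.

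Aldh1a1, which makes retinoic acid from retinal, had 255 and 396 FPKM in H1D, 275 and 269 in H2D, 133 and 179.6 in H3D, 623 and 623 in NCD, and 879 and 1054 in Nor. All high-fat pools lie below all chow pools, and the log2 change in H3D against NCD was -2.01 ± 0.22 (adjusted p = 0.0015). Cyp26a1, which degrades retinoic acid and is induced by it, had 0.611 and 3.71 FPKM in H1D, 1.01 and 0.739 in H2D, 0.266 and 0.288 in H3D, 5.16 and 5.28 in NCD, and 4.98 and 8.40 in Nor. Its log2 change in H3D against NCD was -2.88 ± 0.53 (adjusted p = 0.0102) on a scale with 0.5 FPKM added, which understates changes this low. The retinol carriers of plasma were also lower in H3D than in NCD. Rbp4 averaged 1704 ± 124 FPKM in H3D and 2965 ± 152 in NCD (log2 change -0.80 ± 0.13, adjusted p = 0.0072), and Ttr, which binds Rbp4, 1890 ± 68.1 in H3D and 4521 ± 97.5 in NCD (-1.26 ± 0.11, adjusted p = 0.0007).

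In NCD against Nor, 4 of the 25 rose, Bco1, Dhrs9 and Rarg among them, and Dhrs4 fell. Of all tested genes, 7.93% were called as higher and 6% as lower in that comparison. Bco1, which cleaves beta-carotene to retinal, had 7.37 and 9.39 FPKM in the NCD pools and 2.16 and 1.55 in the Nor pools (log2 change 1.92 ± 0.24, adjusted p = 0.0034), and it averaged 17.0 ± 2.45 in H3D against 8.38 ± 1.43 in NCD. Dhrs9, a retinol dehydrogenase of the short-chain family, had 6.99 and 4.92 FPKM in NCD and 0.437 and 1.37 in Nor (2.27 ± 0.34, adjusted p = 0.0071). The pools do not overlap for either gene, though the share of all tested genes higher without overlap was not counted here. The direction of Bco1 and Dhrs9 in NCD was opposite to that of Adh4, Adh5 and Rdh7. It was not that of most of the list, as 17 of the 25 log2 changes lay below 0. Their median was -0.22, against -0.04 over all tested genes. Without NCD pool 1 or NCD pool 2 the count of 5 called genes was 2 and 3, and it was 8 without Nor pool 2.

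Of 13 other tested genes of alcohol and aldehyde oxidation, 11 fell and 0 rose in H3D against NCD, where 9.87% of all tested genes were called as lower, with a median log2 change of -1.04 against 0.00 over all tested genes. The mean of the high-fat groups gave 9 falls (Acss2, Akr1a1, Aldh2, Aldh3a2, Aldh7a1, Aldh9a1, Cat, Cyp2e1 and Sord), H2D gave 6 and H1D 0 by limma, where 7.53% of all tested genes were called as lower in the mean, 1.93% as lower in H2D and 0.701% in either direction in H1D. In NCD against Nor, where 6% of all tested genes were called as lower and 7.93% as higher, 5 fell (Aldh1l1, Aldh7a1, Cat, Cyp2e1 and Sord) and Aldh1b1 rose. Cyp2e1, the ethanol-oxidising cytochrome P450, had 1088 and 1752 FPKM in H1D, 1465 and 1155 in H2D, 319 and 357 in H3D, 2072 and 2208 in NCD, and 4977 and 4805 in Nor. H3D lies below every other pool and Nor above every other, with log2 changes of -2.66 ± 0.22 in H3D against NCD (adjusted p = 0.0005) and -1.19 ± 0.22 in NCD against Nor (adjusted p = 0.0145). Cyp2e1 and Sord were also called in H3D against H1D (-2.03 ± 0.22, adjusted p = 0.0112 for Cyp2e1) and in H3D against H2D (-1.94 ± 0.22, adjusted p = 0.0118), where 0 of the 8 dehydrogenases were. Without either H3D pool both comparisons called 0 of the 13, as did H3D against H2D without either H2D pool, while H3D against H2D called 4 without either H1D pool and H3D against H1D 1 without H1D pool 2. Whether the dehydrogenases changed less than Cyp2e1 was not tested.

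Aldh2, the mitochondrial enzyme that clears acetaldehyde, averaged 508 ± 4.77 FPKM in H3D and 1095 ± 34.8 in NCD (log2 change -1.11 ± 0.12, adjusted p = 0.0018). Cat (catalase) averaged 427 ± 17.4 in H3D and 981 ± 40.8 in NCD (-1.20 ± 0.14, adjusted p = 0.0023). Acss2, which turns acetate into acetyl-CoA, averaged 24.7 ± 9.06 in H3D and 75.0 ± 17.96 in NCD (-1.61 ± 0.26, adjusted p = 0.0062). Both H3D pools lie below both NCD pools for each of these 3, where 32.3% of all tested genes were lower without overlap. Without NCD pool 1 or NCD pool 2 the 13 genes gave 1 and 2 calls for the mean, 0 in H2D and 0 in NCD against Nor, and H3D gave 8 in each case. The H2D count was 0 without H2D pool 1 or H2D pool 2, and H1D against NCD had 5 calls without H1D pool 2. NCD against Nor had 3 calls without any 1 of the Nor, H2D or H3D pools.

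**Figure D4:**
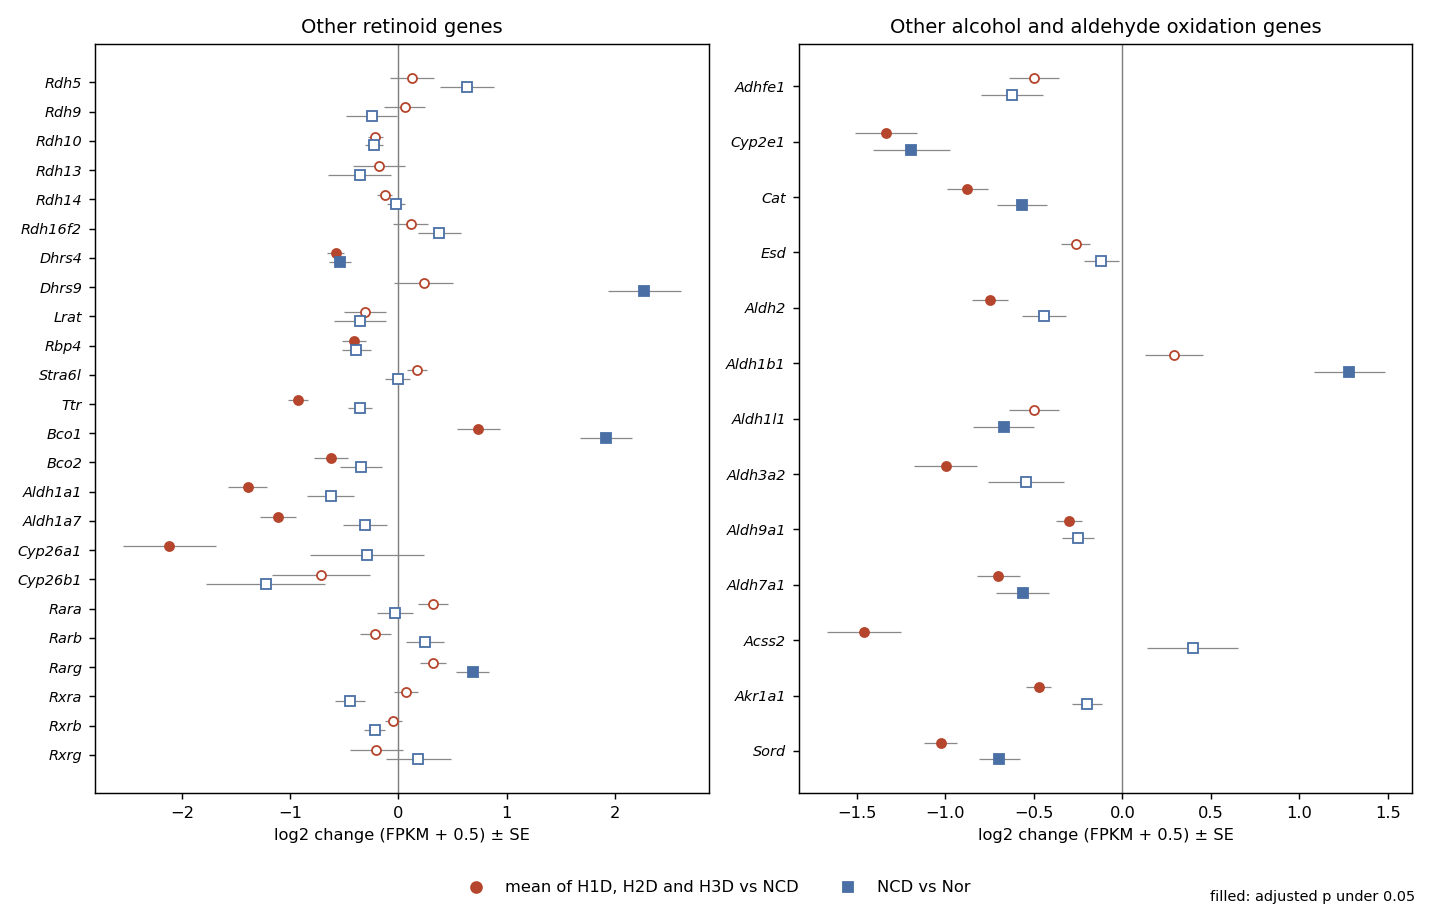
Log2 change of FPKM + 0.5 with limma's standard error (horizontal axes) for tested genes of the retinoid list (left) and of the alcohol and aldehyde list (right). Circles are the mean of H1D, H2D and H3D against NCD and squares are NCD against Nor, filled where the adjusted p was under 0.05. Aldh1a1 and Cyp26a1 stand far left among the circles, and Dhrs9 and Bco1 far right among the squares.

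Markers of some other liver cells differed between groups, and those of others were called little or not at all. In bulk liver, fewer cells of a type and less RNA per cell cannot be told apart. Of all 11557 tested genes, limma called 583 as higher and 1141 as lower in H3D against NCD. These counts were 248 and 223 in H2D, 24 and 57 in H1D, and 489 and 870 in the mean. In NCD against Nor they were 916 and 693. Summed neutrophil markers (8 of 8 tested, Lcn2 the most abundant) ranged over 728 to 850 FPKM in H1D, 1672 to 2355 in H2D, 2946 to 3379 in H3D, 228 to 291 in NCD and 7.73 to 16.6 in Nor. All 8 rose in H2D and in H3D against NCD, and Lcn2 alone in H1D against NCD and in NCD against Nor. Camp, Ltf, Mpo and Ngp were listed at 0 in Nor pool 1, Mpo in Nor pool 2, Camp in NCD pool 2 and Ngp in H1D pool 1. In both Nor pools, both NCD pools and H1D pool 1, 5 of the 8 lay below 1 FPKM. The sums there rest on the remaining markers, Lcn2 among them. Summed erythroid markers (7 tested) ranged over 578 to 1106 FPKM in H1D, 1533 to 2283 in H2D, 1368 to 3982 in H3D, 634 to 758 in NCD and 510 to 551 in Nor, and 4 rose in H3D against NCD. Macrophage markers (8 tested) summed to 204 to 241 in H1D, 249 to 261 in H2D, 194 to 256 in H3D, 140.5 to 164 in NCD and 82.8 to 109.9 in Nor, with 3 called as higher in H3D against NCD. Cholangiocyte markers (5 of 8 tested) summed to 287 to 465 in H1D, 159 to 385 in H2D, 381 to 533 in H3D, 323 to 369 in NCD and 14.8 to 21.6 in Nor, and 3 rose in NCD against Nor (Krt23, Spp1 and Tspan8). Krt23 fell in H3D against NCD (log2 change -2.11 ± 0.34, adjusted p = 0.0067), in H2D against NCD (-1.61 ± 0.34, 0.0439) and in the mean (-1.19 ± 0.28, 0.0327), and the other 4 were not called in these. Stellate cell markers (11 of 12 tested) summed to 198 to 274 in H1D, 233 to 249 in H2D, 135 to 195 in H3D, 188 to 207 in NCD and 208 to 257 in Nor, and 0 were called in any comparison by limma. Hepatocyte markers summed to 81895 to 104438 in H1D, 58416 to 68733 in H2D, 76157 to 91943 in H3D, 71304 to 77628 in NCD and 65574 to 70141 in Nor, and Cps1 and Ttr fell while Fgb rose in H3D against NCD. Lymphocyte markers (6 of 8 tested) had 2 rises in NCD against Nor and 0 calls in H3D against NCD, and endothelial markers (8 tested) had 1 rise in each of these. The part of these cell types in the dehydrogenase levels was not tested.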

How the data were processed

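Long RNA of 10 liver pools was sequenced after removal of ribosomal RNA, with paired reads of 125 bp, per the labels' protocols. The authors deposited FPKM per transcript. GRCm38 and, without roles, TopHat2 2.0.9, Bowtie2 2.0.6, Cuffdiff 2.1.1, SAMtools 0.1.18, GATK, Picard 1.96 and Cufflinks 2.1.1 are named, per the submitters' processing notes. Depth is unknown, and 24.5% of nonzero transcript values lie below 0.001 FPKM, so no reads were recovered. The 50660 transcripts were summed to 21949 genes, and 11557 genes that reached 1 FPKM in 2 or more libraries entered the tests. limma 3.58.1 (R 4.3.3) was fitted to log2(FPKM + 0.5), with 1 coefficient per group, a variance trend, two-sided tests and Benjamini-Hochberg adjustment over all tested genes (calls at adjusted p under 0.05), and was checked on simulated data. Fold changes are on that log2 scale, which understates changes of low genes. "Rose" and "fell" are used for calls. Small RNA and noncoding tables were not used here.

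The members, lists and tests were chosen with earlier results of these data known. Named genes were all members, genes of the 2 lists called in NCD against Nor or in the mean of the high-fat groups against NCD, and the 3 nearest profiles of each member with a log2 range of at least 1; others are given by count, apart from Rdh10, Rdh16f2 and markers of cell types. Alternatives were pseudocounts of 0.1 and 1, no filter, a mean of at least 5 FPKM, equal mRNA sums, quantile scaling, only the groups compared, a replicate block and leaving out each pool. Promoter sequences are RefSeq's (GRCm38.p6), with windows for all 8 members. Some results under these rules are not reported here.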

Additional observations from a re-analysis of the deposited data

How the results depend on the processing

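Of 17 calls among the 8 genes, 2 (Adh1 and Adh4 in H3D against NCD) held in all 18 alternatives tried, and 0 changed direction in any. Leaving out each pool in turn gave 0 to 4 called members in NCD against Nor (4 with all pools), 0 to 1 in H1D against NCD (0), 0 to 3 in H2D against NCD (2), 2 to 6 in H3D against NCD (6), 0 to 6 in the mean of the high-fat groups against NCD (5), 0 in H2D against H1D, and 0 to 1 in H3D against H1D and in H3D against H2D. Scaling to equal mRNA sums gave medians over all genes of 0.0995 to 0.20 on the log2 scale in the comparisons with NCD and Nor, against -0.04 to 0.01 as deposited, and moved the share of higher calls to 94.5% from 56.9% in NCD against Nor and to 74.6% from 33.8% in H3D against NCD. It called 1 member in NCD against Nor, 1 in H2D, 4 in H3D and 2 in the mean. Quantile scaling called 1 in NCD against Nor, 1 in H2D, 5 in H3D and 4 in the mean. With no filter the counts were 2 in NCD against Nor, 0 in H2D and 3 in the mean. With only the groups compared they were 4 in H2D and 1 in H3D against H2D. Same-numbered pools deviated together with correlations of -0.0533 to 0.225, which does not settle whether the numbers pair them. A replicate block called 1 member in H2D. The cause was not tested.

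Directions that turned were all of uncalled differences. In NCD against Nor, Adh1 was 0.20 (equal sums), 0.21 (quantile) and -0.12 to 0.071 without 1 pool, and Dhrs3 was 0.15 (equal sums), 0.11 (quantile) and -0.40 to 0.26 without 1 pool. Adh5 in H2D against NCD was 0.031 (quantile). In H2D against H1D, Rdh7 was -0.058 (quantile) and -0.12 to 0.16 without 1 pool, and Adh7 -0.29 to 0.23 without 1 pool. Rdh11 in H3D against H1D was 0.032 (equal sums), 0.015 (quantile) and -0.29 to 0.16 without 1 pool, and Adh7 in H3D against H2D was -0.49 to 0.033 without 1 pool. Depth is unknown, and with 2 pools per group a difference short of the threshold does not show equal levels.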
